A study of Mus musculus with 4 samples.

Results

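The 8 genes described here encode checkpoint receptors, the surface proteins through which T cells receive restraining or modulating signals: PDCD1, LAG3, HAVCR2, CTLA4, BTLA, CD160, CD244 and CD101. They were taken by symbol from the 64253 gene entries of the deposited count files, and all 8 were found and had counts in every library. The RNA came from CD11a-high CD8+ T cells of the blood of patients given an antibody against PD-1, which is the product of PDCD1. The 4 libraries were 1 from a responder and 1 from a non-responder after therapy, and 1 from a responder and 1 from a non-responder before therapy. The antibody was given at intervals of 3 weeks with 4 doses to a cycle, and the labels name no other drug, no tumour type and no link between patients across times. With 1 library a group, a difference between groups is also a difference between libraries and possibly between patients, and it has no replicate check. Both libraries taken before therapy have a tag for PD-1-positive cells in their names, and whether a gate on PD-1 was used is not stated.

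PD-1 binds the ligands PD-L1 and PD-L2 and recruits phosphatases that quench signals from the T cell receptor and CD28. CTLA-4 competes with CD28 for CD80 and CD86, LAG-3 binds MHC class II, and TIM-3, the product of HAVCR2, binds galectin-9 among other ligands. BTLA and CD160 share the ligand HVEM, and CD244, also called 2B4, binds CD48. T cells under lasting antigen stimulation carry several of these receptors at once, whereas CD160 and CD244 are also found on cytotoxic effector and natural killer (NK) cells of the blood.

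The libraries held between 65500644 and 129773591 counts. The fewest were in the non-responder library before therapy. It also had the fewest genes with a count, 26264, against 29207 to 30169 in the others. Its share of mitochondrial counts was the highest, 5.43%, against 3.37% to 4.75% in the others. How far the quality of that library entered its receptor values was not tested. Levels are given as CPM, counts scaled to library size, after TMM scaling, which is a scaling that assumes that most genes do not differ. The sorted cells' own markers (CD3D, CD3E, CD3G, CD247, CD8A, CD8B and ITGAL) summed to 4816 CPM for the responder and 3379 CPM for the non-responder after therapy, and to 4767 CPM for the responder and 3918 CPM for the non-responder before therapy. All 14 monocyte and neutrophil markers had counts in every library, and their sum was 1915 CPM for the responder and 9240 CPM for the non-responder after therapy, against 118 CPM for the responder and 194 CPM for the non-responder before therapy. Epithelial markers summed to 214 CPM in the responder library before therapy and to between 2.39 and 11.6 CPM in the other libraries. These libraries are bulk samples, so a receptor carried by fewer cells and less of its RNA per cell cannot be told apart.

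**Figure D1:**
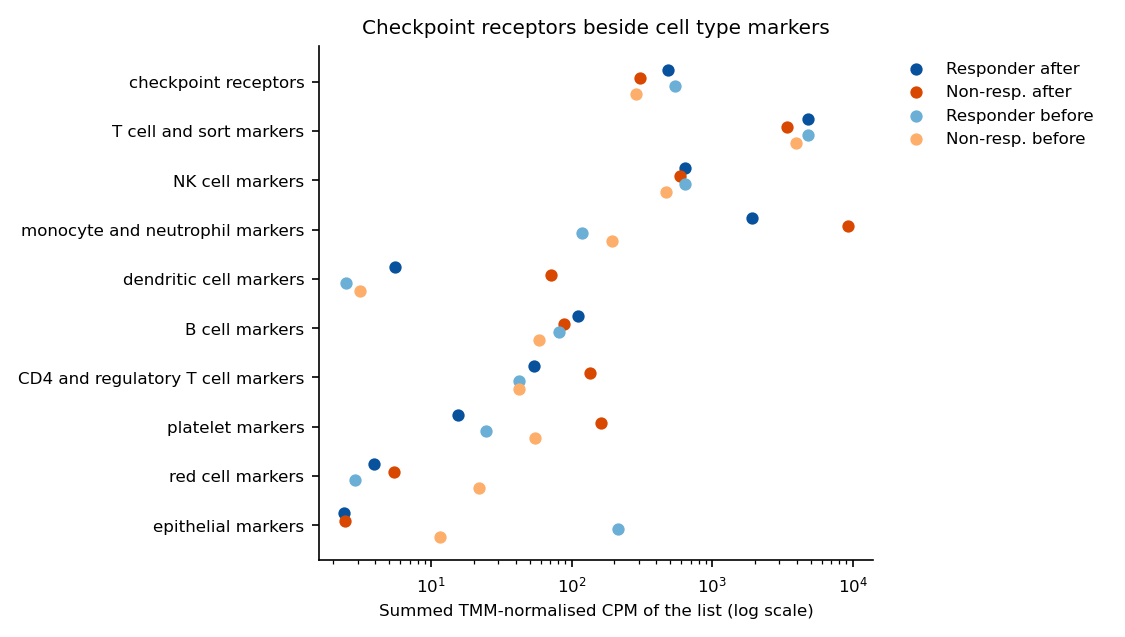
Summed TMM-normalised CPM (log scale) of the 8 checkpoint receptor genes and of 9 lists of cell type markers, with 1 point for each of the 4 libraries. The receptor sum lay between 286 and 538 CPM, whereas the monocyte and neutrophil sum lay between 118 and 9240 CPM.

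Among the receptors themselves, CD244 was the most abundant per length and BTLA the least in every library. Per kilobase of the gene length given in the files, CD244 stood at 69.9 CPM per kb in the responder and 29.8 in the non-responder after therapy, and at 63.7 in the responder and 36.8 in the non-responder before therapy. LAG3 came next in all 4 libraries, between 23.0 and 34.5 CPM per kb, and CD160 after it, between 13.4 and 29.2 CPM per kb. The middle of the order differed between libraries. PDCD1 had rank 4 in both responder libraries, at 13.6 CPM per kb after and 14.9 CPM per kb before therapy. In the non-responder libraries PDCD1 had rank 7 after therapy, at 3.73 CPM per kb, and rank 6 before therapy, at 2.36 CPM per kb. CTLA4, at rank 7 in the responder library before therapy with 6.24 CPM per kb, had rank 4 in both non-responder libraries, at 7.27 CPM per kb after and 6.19 CPM per kb before therapy. HAVCR2 had rank 6 in the responder library after therapy and rank 5 in the other 3 libraries. By CPM without division by length, PDCD1 had rank 5 in the responder and rank 7 in the non-responder library after therapy, and rank 6 in both libraries before therapy. The 95% counting intervals of neighbours in the order overlapped in no library, but counting error is the only error that a single library gives.

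Set among all genes with a count in the same library, PDCD1 exceeded 85.4% of genes per length in the responder and 66.7% in the non-responder library after therapy. Before therapy PDCD1 exceeded 87.5% of genes in the responder and 56.2% in the non-responder library. CD244 exceeded between 93.5% and 97.6% of genes and LAG3 between 91.5% and 94.5%, so both stood high in every library. BTLA exceeded 58.8% of genes in the responder and 50.4% in the non-responder library after therapy, against 60.1% in the responder and 23.5% in the non-responder library before therapy.

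**Figure D2:**
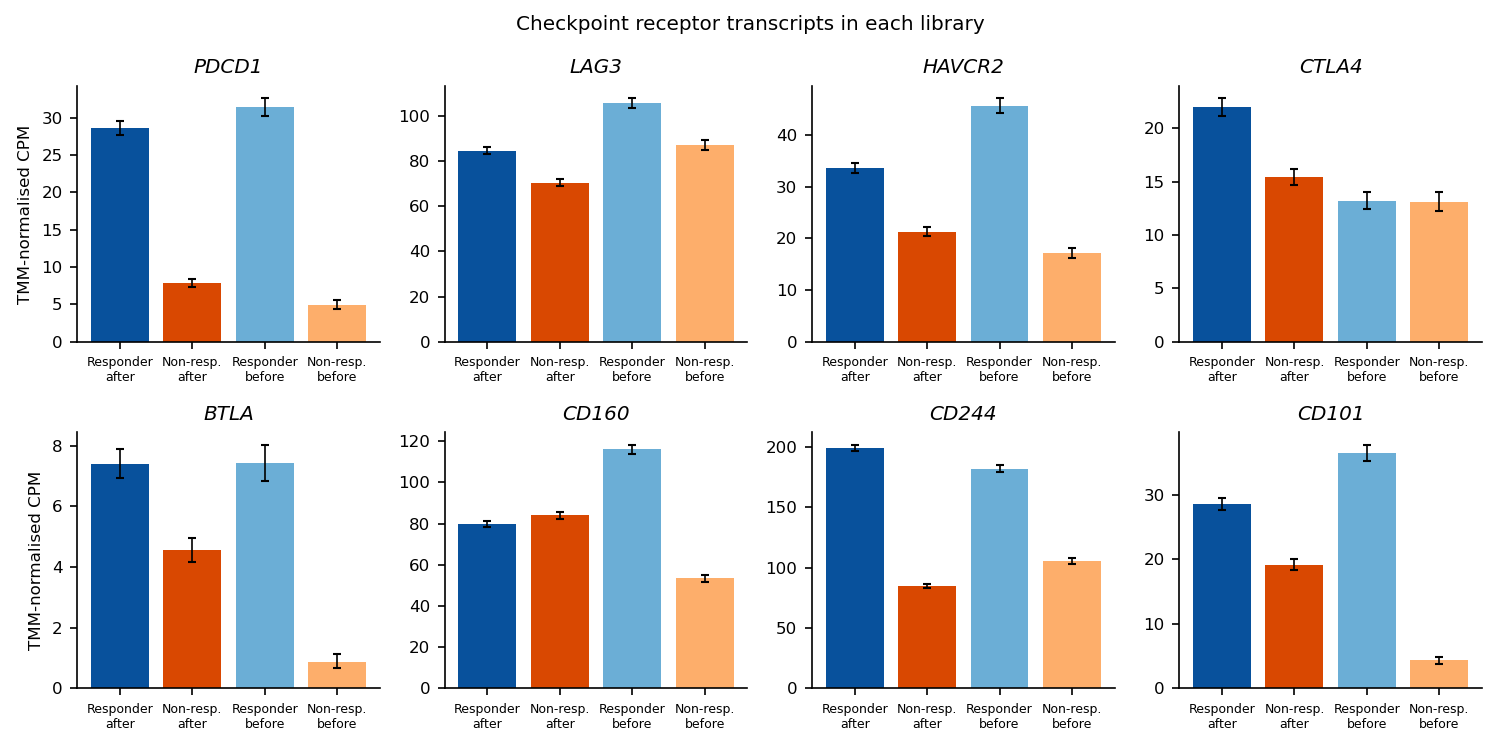
TMM-normalised CPM of each of the 8 checkpoint receptor genes in the 4 libraries, responder beside non-responder, after therapy and before therapy. Bars are single libraries on axes from 0, and error bars are exact 95% Poisson intervals for counting error only. For PDCD1, HAVCR2, BTLA, CD244 and CD101 both responder bars are above both non-responder bars, an order shared by 22.2% of all genes with at least 5 CPM.

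The first question was how the receptors differed between responder and non-responder libraries. All but 1 of the 8 were higher in the responder library after therapy, and all 8 were so before therapy, although the CTLA4 difference before therapy was within counting error and turned to the other side with size factors from DESeq2 or scaling to T cell genes. At both times 7 of 8 were higher, where 36.9% of all genes were. For 5 receptors (PDCD1, HAVCR2, BTLA, CD244 and CD101) both responder libraries lay above both non-responder libraries, as they did for 22.2% of all genes with at least 5 CPM in some library. Higher for the responder by 2-fold or more were 2 of 8 receptors after therapy, where 5.79% of genes were, and 5 of 8 before therapy, where 11.5% of genes were. PDCD1 was the 1 receptor at least 2-fold higher at both times, as were 2.22% of genes. None of the 8 was at least 2-fold lower at either time, whereas 8.85% of genes after and 8.92% before therapy were. The median log2 ratio of the 8 was 0.61 after and 1.27 before therapy, beside medians of 0.07 and 0.06 over all genes that reached 5 CPM in a library of the pair.

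PDCD1 (ENSG00000188389, hg38 chromosome 2: 241849881 to 241858908) stood at 28.7 CPM for the responder and 7.88 CPM for the non-responder after therapy, and at 31.4 CPM for the responder and 4.98 CPM for the non-responder before therapy. The responder libraries were high and the non-responder libraries low, with no overlap, an order shared by 22.2% of all genes with at least 5 CPM. The difference was 3.64-fold after therapy (log2 ratio 1.86, 95% counting interval 1.76 to 1.97), and 0.917% of genes were at least that much higher in the responder. Before therapy the difference was 6.29-fold (2.65, interval 2.49 to 2.83), and 1.67% of genes were at least that much higher. The non-responder library before therapy, the lowest of the 4, had 325 PDCD1 reads. A second entry of the same symbol on an alternate contig had 0 reads in every library. How far a gate on PD-1 entered the values from before therapy was not tested.

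BTLA and CD101 had the widest spread over the 4 libraries, 8.43-fold and 8.39-fold, and in both genes the non-responder library before therapy stood alone at the low end. That library also had the fewest counts, the fewest genes with a count and the highest mitochondrial share. BTLA (ENSG00000186265, chromosome 3: 112463968 to 112499561) had 7.41 CPM for the responder and 4.56 CPM for the non-responder after therapy, against 7.42 CPM for the responder and 0.874 CPM for the non-responder before therapy. That lowest BTLA value rested on 57 reads. The BTLA ratio was 1.63-fold after therapy (log2 ratio 0.70, interval 0.54 to 0.86) and 8.44-fold before therapy (3.08, interval 2.69 to 3.50). CD101 (ENSG00000134256, chromosome 1: 117001750 to 117036476), an immunoglobulin-like receptor also made by myeloid cells, had 28.5 CPM for the responder and 19.2 CPM for the non-responder after therapy. Before therapy CD101 had 36.5 CPM for the responder and 4.34 CPM for the non-responder. Its ratio was 1.48-fold after therapy (0.57, interval 0.49 to 0.65) and 8.39-fold before therapy (3.07, interval 2.90 to 3.25). The entry RP11-27K13.3 overlaps CD101 over 10995 bases and had 559 reads for the responder and 563 for the non-responder after therapy, and 556 for the responder and 44 for the non-responder before therapy. The strand setting of the counting is not given in the sources used here. How far reads of either entry were counted for the other therefore cannot be told.

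HAVCR2, CD160 and CD244 were each 2.67-fold apart or less at either time. HAVCR2 (ENSG00000135077, chromosome 5: 157085832 to 157142869) had 33.6 CPM for the responder and 21.3 CPM for the non-responder after therapy, and 45.6 CPM for the responder and 17.1 CPM for the non-responder before therapy. Both responder values were above both non-responder values, as for 22.2% of all genes with at least 5 CPM. The ratio was 1.58-fold after therapy (log2 ratio 0.66, interval 0.59 to 0.73) and 2.67-fold before therapy (1.41, interval 1.32 to 1.51). Monocytes and dendritic cells also express TIM-3. After therapy the median log2 ratio was -2.22 over the 14 markers of monocytes and neutrophils, and the 5 dendritic cell markers with at least 5 CPM had one of -3.38. The part of RNA from these cells in the HAVCR2 values was not tested. The entry MED7 overlaps HAVCR2 over 5458 bases and had between 643 and 2550 reads.

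CD244 (ENSG00000122223, chromosome 1: 160830160 to 160862855) had 199.6 CPM for the responder and 85.1 CPM for the non-responder after therapy, and 182 CPM for the responder and 105 CPM for the non-responder before therapy. The groups did not overlap, and both responder libraries were above both non-responder libraries for 22.2% of all genes with at least 5 CPM. The CD244 ratio was 2.34-fold after therapy (log2 ratio 1.23, interval 1.20 to 1.26) and 1.73-fold before therapy (0.79, interval 0.75 to 0.83). CD244 thus had its larger ratio after therapy, as did CTLA4, unlike PDCD1, HAVCR2, BTLA, CD160 and CD101, a difference for which the design allows no test. Scaled to T cell genes, the log2 ratios of CD244 were 0.72 after and 0.51 before therapy.

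CD160 (ENSG00000117281, chromosome 1: 145719471 to 145739288) overlapped between the groups. It had 79.8 CPM for the responder and 84.0 CPM for the non-responder after therapy, and 116 CPM for the responder and 53.4 CPM for the non-responder before therapy. The 2 non-responder libraries thus held the lowest and the second highest value. The ratio was 2.17-fold before therapy (log2 ratio 1.12, interval 1.06 to 1.18), and after therapy the responder was 1.05-fold lower (-0.07, interval -0.11 to -0.03). The entry RNF115 overlaps CD160 over 421 bases. It had 7544 reads for the responder and 8215 for the non-responder after therapy, and 5572 for the responder and 4974 for the non-responder before therapy. How far reads of either entry were counted for the other cannot be told. NK cell markers, which mark another cell type that carries CD160 and CD244, had a median log2 ratio of 0.70 after and 0.19 before therapy over 8 genes. Their sum was 634 CPM for the responder and 584 CPM for the non-responder after therapy, and 643 CPM for the responder and 470 CPM for the non-responder before therapy. After therapy 7 of the 8 were higher in the responder. The exception was FCER1G, which myeloid cells also express, with 51.0 CPM for the responder and 276 CPM for the non-responder. The part of NK cell RNA in the CD160 and CD244 values was not tested.

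LAG3 and CTLA4 were less than 1.5-fold apart at both times. LAG3 (ENSG00000089692, chromosome 12: 6772512 to 6778455) had 84.5 CPM for the responder and 70.2 CPM for the non-responder after therapy, and 106 CPM for the responder and 87.1 CPM for the non-responder before therapy. The responder value after therapy was below the non-responder value before therapy, so the groups overlapped. The LAG3 ratio was 1.20-fold after therapy (log2 ratio 0.27) and 1.21-fold before therapy (0.28), but -0.24 and -0.003 on the log2 scale when libraries were scaled to T cell genes. CTLA4 (ENSG00000163599, chromosome 2: 203867786 to 203873960) had 22.0 CPM for the responder and 15.4 CPM for the non-responder after therapy, and 13.2 CPM for the responder and 13.1 CPM for the non-responder before therapy. The CTLA4 ratio was 1.43-fold after therapy (0.51, interval 0.43 to 0.60) and 1.01-fold before therapy (0.01, interval -0.12 to 0.14). Scaled to T cell genes, the log2 ratios of CTLA4 were 0.008 after and -0.27 before therapy. CTLA-4 is also abundant on regulatory T cells. The 6 markers of CD4+ and regulatory T cells summed to 54.2 CPM for the responder and 134 CPM for the non-responder after therapy, and 42.1 CPM in each library before therapy. These genes differed in direction, and CD4 alone carried most of the sum of 134 CPM. CD4 had 11.5 CPM for the responder and 94.7 CPM for the non-responder after therapy, where monocyte markers also stood higher in the non-responder. Before therapy CD4 had 4.48 CPM for the responder and 4.81 CPM for the non-responder. The part of myeloid RNA in the CD4 values was not tested. FOXP3, which defines regulatory T cells, had 1.61 CPM for the responder and 2.32 CPM for the non-responder after therapy, and 2.02 CPM for the responder and 3.68 CPM for the non-responder before therapy. IKZF2, which encodes Helios, had 18.8 CPM for the responder and 4.20 CPM for the non-responder after therapy, and 23.8 CPM for the responder and 17.4 CPM for the non-responder before therapy. The part of CD4+ and regulatory T cells in the CTLA4 values was not tested.

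**Figure D3:**
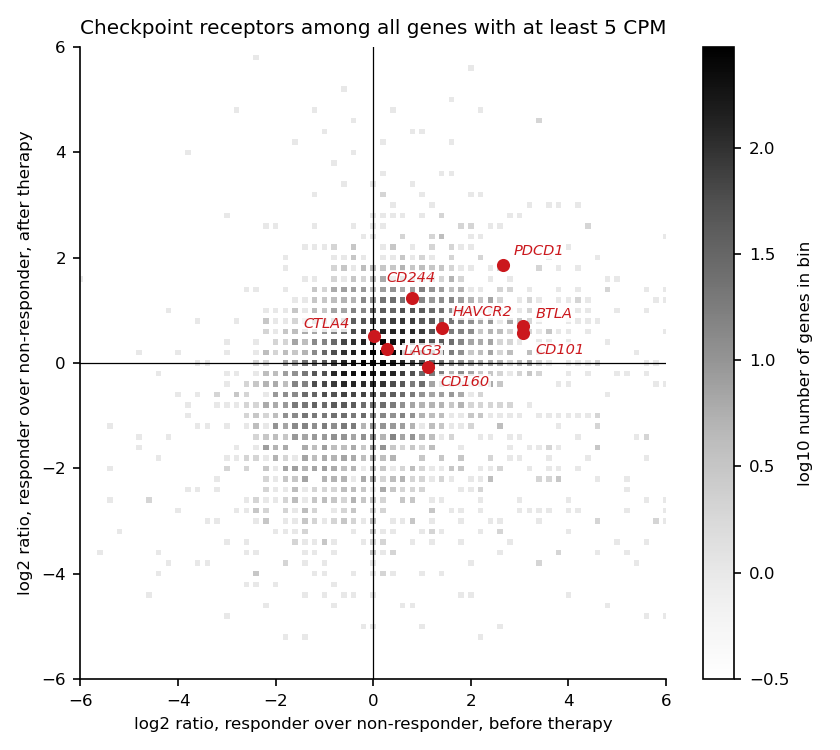
Log2 ratio of CPM, responder over non-responder, after therapy (vertical) against before therapy (horizontal), for genes that reached 5 CPM in some library. Grey squares are bins of 13073 genes, shaded by the number of genes, with 160 further genes beyond the axes, and red points are the 8 receptors. PDCD1 lies at 2.65 before and 1.86 after therapy, and BTLA and CD101 lie together at 3.08 and 3.07 before therapy.

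The 8 ratios depended on what the libraries were scaled to. T cell genes (CD3D, CD3E, CD3G, CD247, CD8A and CD8B) were on average themselves higher in the responder libraries, and scaling to them lowered the log2 ratio of every gene by 0.50 after and by 0.28 before therapy (shifts of -0.50 and -0.28). On that scale 1 receptor, PDCD1, was higher by 2-fold or more in the responder after therapy, with a log2 ratio of 1.36, where 1.76% of genes were. Before therapy 4 were, as were 7.44% of genes. They were PDCD1 at 2.37, HAVCR2 at 1.13, BTLA at 2.80 and CD101 at 2.79. After therapy the ratios of HAVCR2, BTLA and CD101 stood at 0.15, 0.20 and 0.07 on the log2 scale, and that of CD160 stood at -0.58. PDCD1 per T cell RNA stood at 26.2 scaled CPM in the responder and 10.2 in the non-responder library after therapy, and at 26.2 in the responder and 5.05 in the non-responder library before therapy.

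The main test over all 4 libraries was an additive model of response and time, with 1 residual degree of freedom. In edgeR's quasi-likelihood test 0 of 24113 genes (0%) were called for response at an adjusted p under 0.05, so none of the 8 receptors passed, and at an unadjusted p under 0.05 there were 2119 genes, 8.79% of those tested. The unadjusted p was under 0.05 for 3 of the 8 receptors. PDCD1 had a fitted log2 ratio of 2.26 ± 0.365 (SE, adjusted p = 0.558 in edgeR), CD244 one of 1.01 ± 0.208 (adjusted p = 0.558) and HAVCR2 one of 1.04 ± 0.315 (adjusted p = 0.559). BTLA and CD101 had large fitted ratios with wide errors, 1.88 ± 0.823 and 1.81 ± 0.754. Their log2 response ratio after therapy minus that before was -2.38 for BTLA and -2.50 for CD101. Such a difference between times is the only spread this model has for a gene, so the errors do not measure variation between patients. Without the non-responder library from before therapy and with response alone in the model, the fitted ratios were 0.70 for BTLA and 0.76 for CD101. Without the non-responder library from after therapy they were 3.08 and 2.90. DESeq2 on the same model called 896 of the 24113 genes entered for response. Among them were PDCD1 (adjusted p = 2.53e-05 in DESeq2) and CD244 (adjusted p = 0.0126), and limma-voom called 0 genes. Across the edgeR settings with all 4 libraries and the 4 fits that left out 1 library, the adjusted p of PDCD1 lay between 0.272 and 1.

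The second question was how the receptors differed between the times. The times are those of the group label, and a treatment label that places all samples after a cycle goes against it. In the responder libraries none of the 8 was 2-fold apart, where 8.5% of genes were at least 2-fold higher and 4.69% at least 2-fold lower after therapy. In the non-responder libraries 2 of 8, BTLA and CD101, were at least 2-fold higher after therapy, where 15.6% of genes were, and none was 2-fold lower, as 8.25% of genes were. BTLA was under 5 CPM in both of those libraries and is not among the genes behind these percentages. BTLA in the responder libraries was 1.00-fold apart (log2 ratio -0.003, interval -0.15 to 0.15), whereas in the non-responder libraries it was 5.19-fold higher after therapy (2.37, interval 1.99 to 2.80). CD101 was 1.28-fold lower after therapy in the responder libraries (-0.35, interval -0.42 to -0.28) and 4.42-fold higher in the non-responder libraries (2.14, interval 1.97 to 2.33). Monocyte and neutrophil markers were all at least 2-fold higher after therapy in both, with a median log2 ratio of 3.37 in the responder and 5.38 in the non-responder libraries, so CD101 was higher together with them in the non-responder libraries and not in the responder libraries. The part of myeloid RNA in CD101 was not tested.

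PDCD1 was 1.10-fold lower after therapy in the responder libraries (log2 ratio -0.13, interval -0.20 to -0.06) and 1.58-fold higher in the non-responder libraries (0.66, interval 0.48 to 0.85). Scaled to T cell genes its log2 ratio was -0.001 in the responder and 1.01 in the non-responder libraries. With that scaling 4 of the 8 receptors were at least 2-fold higher after therapy in the non-responder libraries, where 25% of genes were. They were PDCD1, CD160 (also 1.01), BTLA and CD101. BTLA was under 5 CPM in both of those libraries and is not among the genes behind that percentage. HAVCR2 was 1.36-fold lower in the responder and 1.24-fold higher in the non-responder libraries after therapy, and CD160 was 1.45-fold lower in the responder and 1.57-fold higher in the non-responder libraries. CTLA4 had the largest ratio of the 8 in the responder libraries, where it was 1.66-fold higher after therapy (0.73, interval 0.63 to 0.84), against 1.17-fold in the non-responder libraries. LAG3 was lower after therapy in both, by 1.25-fold in the responder and 1.24-fold in the non-responder libraries, but in the non-responder libraries it was slightly higher (0.04) when scaled to T cell genes. CD244 was 1.10-fold higher in the responder and 1.24-fold lower in the non-responder libraries after therapy, and the non-responder value stood at 0.05 on the log2 scale with T cell gene scaling. For time, edgeR's additive model called 0 of 24113 genes (0%), with 2732 genes (11.3%) at an unadjusted p under 0.05 and none of the 8 receptors among those. These ratios use the same 4 libraries as the comparison of responders with non-responders and are not independent of it.

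**Figure D4:**
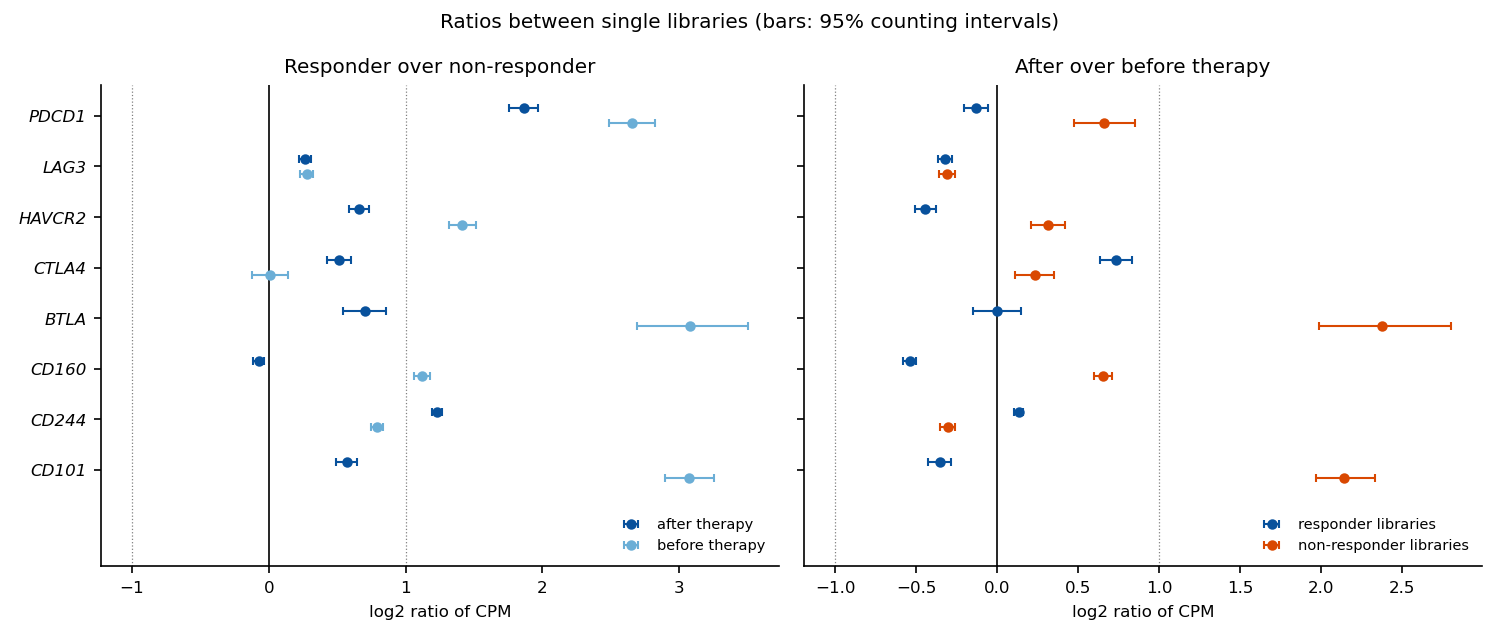
Log2 ratios of CPM for the 8 receptors, with the responder over the non-responder library in the left panel and the library after therapy over the one before it in the right panel. Each point compares 2 single libraries, bars are 95% counting intervals, and dotted lines mark 2-fold. BTLA and CD101 lie beyond the 2-fold line for the non-responder libraries on the right, at 2.37 and 2.14.

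The balance between the receptors also differed from library to library. Of the summed CPM per kb of the 8, PDCD1 made up 8.49% in the responder and 3.85% in the non-responder library after therapy, and 8.63% in the responder and 2.53% in the non-responder library before therapy. LAG3 ran the other way in its share, with 17.3% in the responder and 23.7% in the non-responder library after therapy, and 20.1% in the responder and 30.6% in the non-responder library before therapy. CD244 held the largest share in each library, between 30.8% and 43.7%. These shares need no scaling between libraries. For each PDCD1 transcript per length there were 2.04 of LAG3 in the responder and 6.17 in the non-responder library after therapy, and 2.32 in the responder and 12.1 in the non-responder library before therapy. The CTLA4 level over the PDCD1 level was 0.765 in the responder and 1.95 in the non-responder library after therapy, and 0.42 in the responder and 2.63 in the non-responder library before therapy. The BTLA level over the PDCD1 level had no such split, at 0.148 in the responder and 0.331 in the non-responder library after therapy and 0.135 in the responder and 0.1 in the non-responder library before therapy.

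**Figure D5:**
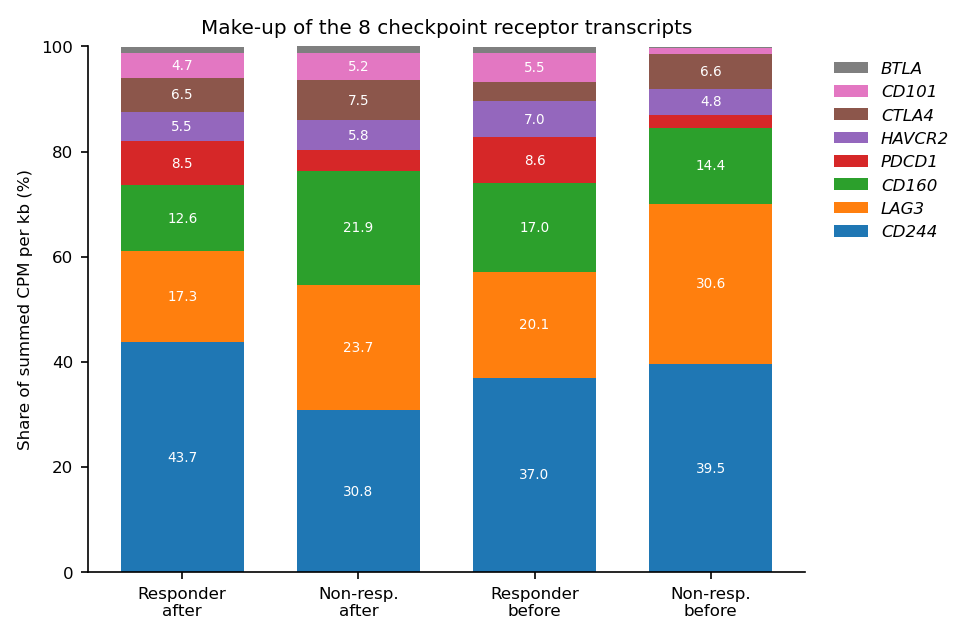
Share of each receptor in the summed CPM per kb of the 8 receptors, in percent, in the 4 libraries, responder beside non-responder, after therapy and before therapy. PDCD1 takes 8.49% and 8.63% of the responder bars and 3.85% and 2.53% of the non-responder bars.

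Likeness of patterns was measured as the root mean square difference of log2 CPM, centred on each gene's mean, over the 4 libraries. It is a description, since 4 libraries allow many genes to match. Among the receptors the closest pair was BTLA and CD101, at 0.152, then HAVCR2 with CD160 at 0.286 and HAVCR2 with CD244 at 0.299. BTLA and LAG3 were farthest apart, at 1.25. Among 15069 other genes the closest to PDCD1 were RP11-493L12.4 at 0.112, C9orf64 at 0.117, FASLG at 0.153, AARS at 0.175 and POLH at 0.208. FASLG, the death ligand of cytotoxic T cells, had 41.6 CPM for the responder and 15.2 CPM for the non-responder after therapy, and 48.3 CPM for the responder and 7.96 CPM for the non-responder before therapy. AARS, an aminoacyl-tRNA synthetase gene, had 77.9 CPM for the responder and 22.8 CPM for the non-responder after therapy, and 66.4 CPM for the responder and 11.8 CPM for the non-responder before therapy. Closest to LAG3 were ARPC1A and AC037459.4, to HAVCR2 LXN and NAT1, to CTLA4 PACS2 and PCYOX1L, and to CD160 SLC5A3 and RRS1. Closest to CD244 were POLR3G and PRIM1, to BTLA METTL13 and SLC2A11, and to CD101 RP3-508I15.9 and again SLC2A11. These distances lay between 0.0112 and 0.0831.

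The ligands of these receptors had a median log2 ratio of -0.29 after and 0.33 before therapy, beside 0.61 and 1.27 for the receptors. Of 7 ligand genes with at least 5 CPM, 1 was at least 2-fold higher and 3 were at least 2-fold lower in the responder after therapy, and 0 of 6 were 2-fold apart before therapy. Of all genes at that level, 5.79% were 2-fold higher and 8.85% 2-fold lower after therapy, and 11.5% and 8.92% before therapy. CD274, which encodes PD-L1, had 19.3 CPM for the responder and 4.32 CPM for the non-responder after therapy, and 9.10 CPM for the responder and 15.5 CPM for the non-responder before therapy. CD86, the CTLA-4 ligand of antigen-presenting cells, had 13.9 CPM for the responder and 54.2 CPM for the non-responder after therapy, where monocyte markers also stood higher in the non-responder. Before therapy CD86 had 0 CPM for the responder and 0.291 CPM for the non-responder. LGALS9, which encodes galectin-9, had 7.76 CPM for the responder and 25.1 CPM for the non-responder after therapy. Before therapy LGALS9 went the other way, with 9.56 CPM for the responder and 7.02 CPM for the non-responder. The part of myeloid RNA in these ligand values was not tested.

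Signalling and trafficking partners had a median log2 ratio of 0.47 after and 0.46 before therapy. Of 14 such genes, 1 was higher by 2-fold or more in the responder after therapy and 3 before therapy, and none was 2-fold lower. Of all genes with at least 5 CPM, 5.79% were that much higher and 8.85% that much lower after therapy. Before therapy these shares were 11.5% and 8.92%. SH2D1A, which encodes SAP, the adaptor that binds CD244, had 275 CPM for the responder and 107 CPM for the non-responder after therapy, and 119 CPM for the responder and 53.4 CPM for the non-responder before therapy. That gene was at least 2-fold higher at both times. SH2D1B, the related adaptor EAT-2 of NK cells, had 21.3 CPM for the responder and 13.4 CPM for the non-responder after therapy, and 41.2 CPM for the responder and 13.0 CPM for the non-responder before therapy. FBXO38, a ubiquitin ligase adaptor that acts on PD-1, had 61.9 CPM for the responder and 44.0 CPM for the non-responder after therapy, and 47.6 CPM for the responder and 22.3 CPM for the non-responder before therapy. LCK, the kinase that starts T cell receptor signalling, had 1081 CPM for the responder and 663 CPM for the non-responder after therapy, and 1284 CPM for the responder and 683 CPM for the non-responder before therapy.

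Other receptors of the T cell surface were described for comparison. Of 11 other inhibitory receptor genes, 2 were higher by 2-fold or more in the responder after therapy and 5 before therapy, with 0 at least 2-fold lower at either time. Of all genes, 5.79% were that much higher after and 11.5% before therapy, and 8.85% and 8.92% were that much lower. The pair after therapy was TIGIT and KLRG1. TIGIT, which competes with the activating receptor CD226, had 230 CPM for the responder and 41.9 CPM for the non-responder after therapy, and 160 CPM for the responder and 60.5 CPM for the non-responder before therapy. CD200R1 had 26.9 CPM for the responder and 13.5 CPM for the non-responder after therapy, and 11.8 CPM for the responder and 0.368 CPM for the non-responder before therapy, where it was low in the same library as BTLA and CD101. PVRIG had 82.6 CPM for the responder and 41.7 CPM for the non-responder after therapy, and 119 CPM for the responder and 56.1 CPM for the non-responder before therapy. Of the costimulatory receptors, 1 of 6 was higher by 2-fold or more in the responder after therapy and 3 of 8 before therapy, beside the same 5.79% and 11.5% of all genes. TNFRSF9, which encodes 4-1BB, had 17.0 CPM for the responder and 6.82 CPM for the non-responder after therapy, and 15.5 CPM for the responder and 5.86 CPM for the non-responder before therapy.

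Transcription factors known to act on checkpoint genes did not run one way. Of 14 with at least 5 CPM after therapy, 1 was at least 2-fold higher and 2 were at least 2-fold lower in the responder, and of 15 before therapy 2 were higher and 3 lower. Of all genes, 5.79% were that much higher and 8.85% lower after therapy, and 11.5% higher and 8.92% lower before therapy. BATF, an AP-1 factor, had 29.6 CPM for the responder and 17.4 CPM for the non-responder after therapy, and 55.5 CPM for the responder and 25.6 CPM for the non-responder before therapy. NR4A1, an orphan nuclear receptor known in mice to act on exhausted T cells, had 4.47 CPM for the responder and 32.4 CPM for the non-responder after therapy, and 3.57 CPM for the responder and 15.5 CPM for the non-responder before therapy. The factors at least 2-fold lower were all of its family, NR4A1 and NR4A2 after therapy and these with NR4A3 before therapy. NR4A2 had 62.3 CPM for the responder and 139 CPM for the non-responder after therapy, and 28.6 CPM for the responder and 341 CPM for the non-responder before therapy. No gene of these lists passed edgeR's test for response or time, which called 0 genes.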

How the data were processed

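The tools named are bcl2fastq 1.8.4 for base calls and TopHat2 for alignment, with the build hg38, per the submitters' processing notes. The deposited files hold raw counts per gene, 1 file a library, per the file headers. How reads were counted, with which annotation and strand setting, is not given in the sources used here. Each library was made from 1 ng of RNA and read as pairs of 101 bases, per the labels' protocols. A treatment label places every sample after a cycle of therapy, and the group label, which separates before from after, was followed. The label for the organism says mouse, but the genes are human, so no sequence of the mouse reference was used.

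Entries on other contigs (4146) and 617 sex-informative genes were left out, which leaves 59490. R 4.3.3, edgeR 4.0.16, limma 3.58.1 and DESeq2 1.42.0 were used. TMM factors came from genes kept by filterByExpr. Ratios of 2 libraries used a prior count of 0.5, with exact conditional binomial 95% intervals that cover counting error only, as amplified reads without molecular identifiers are not independent molecules. Genes that reached 5 CPM in a library of the pair entered counts of 2-fold differences. The additive model used edgeR's two-sided quasi-likelihood test, and p-values were adjusted by Benjamini-Hochberg over all genes tested, with a threshold of 0.05. It was tested on simulated data, where recovery was required only at a spread smaller than the one fitted here (biological coefficient of variation 0.66). That run therefore does not show how many differences the model misses here. The only spread behind the p-values is the part of these single libraries that response and time do not explain. For each gene that part is the difference of its response ratio between the times, and no replicate enters it. The SE is the fitted ratio divided by the square root of F.

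The receptors and the 14 other lists were chosen with earlier results of these data known. From each list up to 4 genes could be named, among genes with at least 5 CPM in some library. They were those with the largest absolute mean of the 2 log2 response ratios, higher or lower. Named too were the 5 genes most like PDCD1 and the 2 most like each other receptor. These came from genes with at least 10 reads in every library and a mean of at least 1 CPM. Receptor segment, immunoglobulin, HLA and KIR genes and the sex chromosomes were left out of that search. FOXP3 and the overlapping entries were named after their values were seen. The gene VSIR was not matched. Gene length is the files' own column.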

Additional observations from a re-analysis of the deposited data

Results flagged for a closer look

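Each pair of times or of response groups holds single libraries, so none of these differences was tested, and the intervals cover counting error only. CD160 was higher in the responder before therapy and slightly lower after therapy, which puts its log2 ratio after therapy 1.19 below the one before it (difference -1.19, interval -1.26 to -1.13).

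Between the responder and non-responder libraries, 5 of the 8 receptors had after-over-before ratios of opposite sign with both counting intervals clear of 0, as did 22.7% of genes with at least 5 CPM in some library. BTLA, at -0.003 in the responder and 2.37 in the non-responder libraries, was not counted because its responder interval holds 0. The log2 ratio of after over before in the responder libraries minus that in the non-responder libraries was -2.50 for CD101, -1.19 for CD160, -0.79 for PDCD1 and -0.76 for HAVCR2, all of which were lower after therapy in the responder and higher in the non-responder libraries. The CD244 difference was 0.44, with the opposite signs. With T cell gene scaling CD244 was no longer opposite in sign, while PDCD1 in the responder libraries lay at -0.001. By construction the difference of 2 response ratios and that of 2 time ratios is one number for each gene, so the CD160 value stands for both.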

How the results depend on the processing

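Scaling to T cell genes by construction shifts every gene of a pair by the same log2 amount. The shift was -0.50 for the response ratio after therapy and 0.35 for the time ratio in the non-responder libraries. It left 1 receptor at least 2-fold higher in the responder after therapy. In the non-responder libraries 4 were at least 2-fold higher after therapy. Why T cell genes differed between libraries was not tested. By construction of the threshold, at 1.5-fold 4 receptors were higher in the responder after therapy (17.4% of genes) and 4 at both times (8.43%). Between times, 1 was higher after therapy in the responder (20.9%) and 4 in the non-responder libraries (26.9%). BTLA is among those last 4, but it was under 5 CPM in both non-responder libraries and is not in that percentage. At 3-fold, 1 receptor was higher in the responder after (1.52% of genes) and 3 before therapy (4.81%). At both times 7 receptors were higher in the responder under TMM, 6 with DESeq2 size factors (36.6% of genes) and 5 with T cell gene scaling (13.2%). With a minimum of 1 CPM, 21.0% of all genes were at least 2-fold apart between the responder libraries, against 13.2% at 5 CPM.

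In DESeq2 the additive model called 896 genes for response and 1516 for time, of 24113 genes entered, against 0 in edgeR. For time, edgeR without a filter on low counts called 2 genes and limma-voom called 2. The cause was not tested. Leaving out each library in turn, with a model of response only or time only, gave 0 calls each time in edgeR, with 522 to 3132 genes for response and 1073 to 3463 for time at an unadjusted p under 0.05, where the lone library of a group is assumed to vary like the others. Against TMM, log2 ratios shifted most by -0.10 with total counts and by 0.03 with DESeq2 size factors, both between the responder libraries. Without division by length every receptor but CD244 and BTLA changed rank in some library. No ratio of a pair of libraries that was 2-fold apart changed sign under the other scalings or prior count. In the fits for time, without the non-responder library from before therapy, BTLA stood at -0.31 and CD101 at -0.61, against 1.17 and 0.89 with all libraries, and CD101 at -0.09 without the responder library from after therapy. No paired analysis was possible because each group has 1 library and the labels give no shared replicate numbers. Depth limits BTLA most, at 57 reads in its lowest library.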

Other observations

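The nearest genes with at least 1 CPM on either side of a receptor were looked up after the receptors' values had been seen. LAG3 lies 8403 bases from CD4 on chromosome 12. CD4 had 11.5 CPM for the responder and 94.7 CPM for the non-responder after therapy, a log2 ratio of -3.04, while LAG3 had a log2 ratio of 0.27 in the same pair. CTLA4 lies between CD28 and ICOS, its costimulatory relatives on chromosome 2. The log2 ratio of the responder over the non-responder was -0.32 for CD28 and 0.74 for ICOS after therapy, and 0.61 for CD28 and -0.50 for ICOS before therapy, beside 0.51 after and 0.01 before therapy for CTLA4. LY9, a receptor of the same family as CD244, lies 1899 bases from it and had log2 ratios of 0.66 after and 0.59 before therapy, beside 1.23 and 0.79 for CD244. The nearest such genes of PDCD1, D2HGDH and AC093642.3, both stood lower for the responder after and before therapy, with log2 ratios between -2.08 and -0.23.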
